A study of Rattus norvegicus with 11 samples.

Results

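The genes described here are 34 interferon-stimulated genes of rat retroperitoneal white adipose tissue, chosen by name from a list of genes that interferons induce in many cell types, out of 25275 genes in the deposited count table. Of the 34 symbols, 33 stood in the table as written and Xaf1 stood there in capitals, and all 34 were counted highly enough to be tested. RNA came from individual female wild-type Wistar rats, 6 on degarelix only and 5 on degarelix plus follicle-stimulating hormone (FSH), 1 library per rat. Both groups had eaten a western diet for 6 weeks from 10 weeks of age, both had lost their ovaries, and both received degarelix, which blocks the receptor of gonadotropin-releasing hormone and so lowers the pituitary's own gonadotropins. Osmotic pumps held vehicle in the first group and, in the second, an FSH dose of 6 µg/kg daily. Food was restricted for 12 days and then free for 7 days, and tissue was taken after a 4 h fast, at 19 weeks of age. A negative difference means a lower level in the rats that also got FSH. Because neither an intact group nor a group without degarelix was analysed here, the comparison concerns FSH added back where ovarian hormones and the animal's own gonadotropins were low.

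Interferons are secreted alarm signals. Type I interferons bind the receptor Ifnar1/Ifnar2, and the kinases Jak1 and Tyk2 then phosphorylate transcription factors, Stat2 among them, which join Irf9 and bind the interferon-stimulated response element in the promoters of their target genes. Interferon gamma signals through another receptor to the interferon gamma activated site. The induced genes encode sensors of viral RNA, proteins that block viral replication, the machinery that loads peptides on MHC class I, and brakes on the pathway itself. In adipose tissue the genes are active at a basal level in fat cells, vessel cells and macrophages without any infection. In whole tissue, fewer cells of a type and less RNA per cell cannot be told apart.

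Library totals lay between 16452117 and 23694602 counts on degarelix only and between 13163021 and 19837706 counts with FSH (two-sided exact permutation test, p = 0.0649). Levels are given as CPM, counts scaled to the same library total after TMM normalization, and they were not compared between genes, since transcript lengths were not used here. A count of 0 allows up to 0.127 to 0.223 CPM (3 counts, counting error only). As a check of the tissue label, the 9 adipocyte markers together held 36969.6 to 49044 CPM per library.

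RefSeq promoter windows (250 bases before to 50 bases after the gene start, build GRCr8) were matched for 25 of the 34 genes. The core of the interferon-stimulated response element was searched as GAAA, any 2 bases and GAAA again, on either strand. It stood in 15 of these 25 windows (60.0%) and in 1312 of all 33469 windows of the same length (3.92%). The core of the gamma activated site, TTCNNNGAA, which reads the same on both strands, stood in 6 of the 25 (24.0%), Irf1 and Irf9 among them, and in 8.87% of all windows. No match for the response element core was found in the windows of Mx1, Oasl, Irf1, Irf9, Stat2, Psmb9, Parp9, Herc6, Cmpk2 and Trim25. Windows were not matched for Isg15, Mx2, Ifit1, Ifit2, Usp18, Ddx58, Dhx58, Rtp4 and Zbp1. Such letters are a match and not a measured binding site. The windows below are those with the response element core whose genes had the smallest p in the group comparison, read 5′ to 3′ on the gene's strand, with the core (on either strand) in capitals. Lgals3bp lies at chr10:104127799-104128098, minus strand, Eif2ak2 at chr6:21940904-21941203, plus strand, Irf7 at chr1:205799974-205800273, minus strand, Xaf1 at chr10:57415685-57415984, plus strand, Ifih1 at chr3:67683919-67684218, minus strand and Oas1a at chr12:41330216-41330515, plus strand.
Lgals3bp: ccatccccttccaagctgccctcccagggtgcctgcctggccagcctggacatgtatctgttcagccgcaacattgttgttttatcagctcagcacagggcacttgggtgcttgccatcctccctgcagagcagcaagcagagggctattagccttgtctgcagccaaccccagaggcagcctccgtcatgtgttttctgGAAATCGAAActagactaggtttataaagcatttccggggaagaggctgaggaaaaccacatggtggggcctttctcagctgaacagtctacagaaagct
Eif2ak2: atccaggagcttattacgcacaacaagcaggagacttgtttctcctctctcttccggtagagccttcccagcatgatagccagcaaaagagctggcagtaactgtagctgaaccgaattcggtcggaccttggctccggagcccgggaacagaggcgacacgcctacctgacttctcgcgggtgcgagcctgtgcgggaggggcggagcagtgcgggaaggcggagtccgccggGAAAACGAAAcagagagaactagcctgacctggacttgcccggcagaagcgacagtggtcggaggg
Irf7: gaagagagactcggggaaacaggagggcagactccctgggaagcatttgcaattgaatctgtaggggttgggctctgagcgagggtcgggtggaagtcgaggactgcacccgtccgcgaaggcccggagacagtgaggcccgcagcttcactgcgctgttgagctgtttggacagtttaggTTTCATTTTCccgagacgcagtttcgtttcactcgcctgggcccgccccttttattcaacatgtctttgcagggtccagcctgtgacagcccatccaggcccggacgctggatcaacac
Xaf1: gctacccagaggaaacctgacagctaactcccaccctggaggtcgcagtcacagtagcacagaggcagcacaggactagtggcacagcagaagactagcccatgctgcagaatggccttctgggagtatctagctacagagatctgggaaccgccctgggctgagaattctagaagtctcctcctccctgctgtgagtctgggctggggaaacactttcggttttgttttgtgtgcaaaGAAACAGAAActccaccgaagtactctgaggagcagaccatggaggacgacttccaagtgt
Ifih1: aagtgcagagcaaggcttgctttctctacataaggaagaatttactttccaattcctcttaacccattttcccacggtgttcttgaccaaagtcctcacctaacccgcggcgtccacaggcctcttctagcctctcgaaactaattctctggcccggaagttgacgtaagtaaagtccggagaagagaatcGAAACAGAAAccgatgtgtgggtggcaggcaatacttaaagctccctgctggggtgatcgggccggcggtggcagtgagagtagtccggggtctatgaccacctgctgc
Oas1a: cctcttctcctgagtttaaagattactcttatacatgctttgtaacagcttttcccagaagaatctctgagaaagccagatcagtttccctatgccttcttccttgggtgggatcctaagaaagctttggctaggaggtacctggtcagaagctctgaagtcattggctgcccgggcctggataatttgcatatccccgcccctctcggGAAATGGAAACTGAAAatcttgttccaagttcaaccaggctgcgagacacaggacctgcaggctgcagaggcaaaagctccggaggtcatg
The core begins 50 bases before the gene start in Lgals3bp, 16 in Eif2ak2, 69 in Irf7, 11 in Xaf1 and 59 in Ifih1. In Oas1a a pair of overlapping cores begins 41 and 35 bases before the start, so the capitals run through both. The Irf7 core lies on the strand opposite to the gene, and the others shown lie on the gene's own strand.

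Across the group comparison the interferon-stimulated genes were mostly lower with FSH, but none passed the test. Of 34 genes, 30 had a log2 change below 0 and 4 above 0, with a median of -0.45, where 48.4% of all 12846 genes tested were below 0 and their median was 0.01. In edgeR's quasi-likelihood test with Benjamini-Hochberg adjustment over all genes tested, 0 of 34 genes passed an adjusted p of 0.05, against 2.27% of all genes (1.07% lower, 1.21% higher). The lowest adjusted p among the listed genes was 0.138. At an unadjusted p under 0.05, 6 of 34 passed (5 lower, 1 higher), against 22.6% of all genes (10.8% lower, 11.8% higher). The count in both directions together was not above the background, and the lower genes alone were slightly above theirs. The groups overlapped at all 34 genes, whereas 4.34% of all genes had no overlap (1.80% lower, 2.54% higher). DESeq2 called 1 of 34 (Lgals3bp) against 10.0% of the genes it adjusted, and limma-voom with quality weights called 0 against 4.91%. The median of the list was -0.27 without degarelix only replicate 4 and -0.55 without FSH replicate 5. Leaving out degarelix only replicate 4 moved 21 of the 34 log2 changes by over 1.5 times, 19 of them toward or past 0. No other single library moved more than 9.

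**Figure D1:**
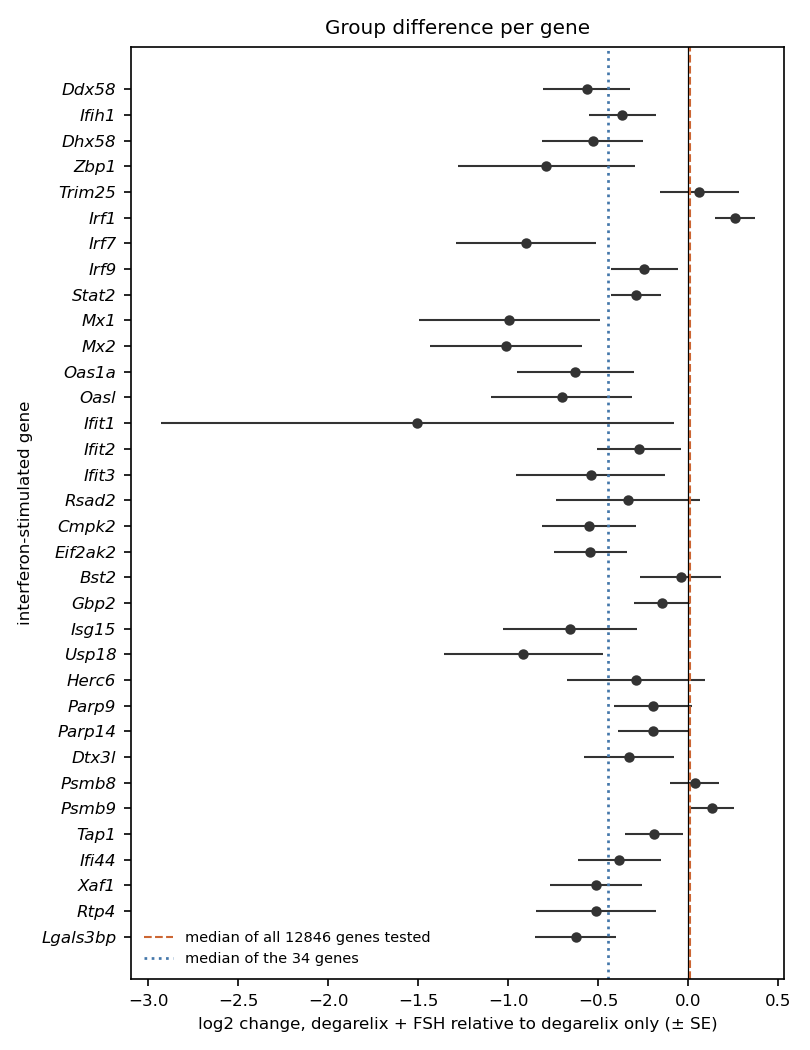
Log2 change of each of the 34 interferon-stimulated genes (horizontal axis, degarelix plus FSH relative to degarelix only, points with SE from edgeR), with the medians of the list (dotted) and of all genes tested (dashed). Most points lie left of 0 around the list median of -0.45, and Irf1, Psmb9, Trim25 and Psmb8 lie to its right.

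Upstream of the listed genes, the counts of the interferons themselves were at or near 0. Of 13 interferon ligand symbols, 10 matched the table, and 9 of these, among them Ifnb1 and Ifna4, had 0 counts in all 11 libraries. The Ifna genes have near relatives in the genome, so reads may have been lost between copies, and their 0 counts do not show absence. Ifng, the interferon of T and NK cells, had 7 counts in all, 5 of them in degarelix only replicate 2. The receptors were present: Ifnar1 had 82.3 ± 7.47 CPM in the 6 rats on degarelix only and 78.6 ± 5.61 CPM in the 5 rats given FSH (± SD), and Ifnar2 had 28.8 ± 2.84 and 35.4 ± 4.85 CPM (log2 change 0.30 ± 0.10 SE, adjusted p = 0.104 in edgeR). None of 6 receptor genes tested passed over all genes in edgeR, and 1 (Ifnar2) had an unadjusted p under 0.05.

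Irf3, the factor that switches on interferon genes downstream of the sensors, rose from 123 ± 9.21 CPM (SD, n = 6) to 149.7 ± 10.1 CPM (SD, n = 5), without overlap (log2 change 0.29 ± 0.07 SE, adjusted p = 0.0492, edgeR). The call was not stable to single libraries. Its adjusted p stayed under 0.05 when replicate 4 of either group was removed, and any other removal ended the call (highest value 0.120), as did DESeq2's size factors (0.0504), upper-quartile scaling (0.0519) and no low-count filter (0.0674).

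Transcription factors of the list did not pass, and they split by gene. Irf7, the factor that amplifies type I interferon production, ranged from 212 to 625 CPM (median 306) on degarelix only, and 84.4, 248, 167, 105 and 324 CPM in FSH replicates 1 to 5. FSH replicates 1, 3 and 4 lay below all degarelix only libraries and replicates 2 and 5 lay within their range (log2 change -0.90 ± 0.39 SE, adjusted p = 0.197 in edgeR). Irf1, the factor most tied to interferon gamma, was the exception, with 45.6 to 74.9 CPM (median 59.0) on degarelix only, and 69.7, 72.3, 76.2, 63.3 and 72.1 CPM in FSH replicates 1 to 5. Its FSH libraries lay in the upper part of the degarelix only range or just above it (log2 change 0.26 ± 0.11 SE, adjusted p = 0.195). Stat2, the partner of Irf9, had 79.8 to 141 CPM (median 107) on degarelix only, and 77.7, 90.5, 95.2, 71.5 and 101 CPM in FSH replicates 1 to 5 (log2 change -0.29 ± 0.14 SE, adjusted p = 0.245). FSH replicates 1 and 4 lay below the lowest degarelix only library and the others lay within the range. Irf9 had a log2 change of -0.25 ± 0.19 (-0.12 without degarelix only replicate 4).

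**Figure D2:**
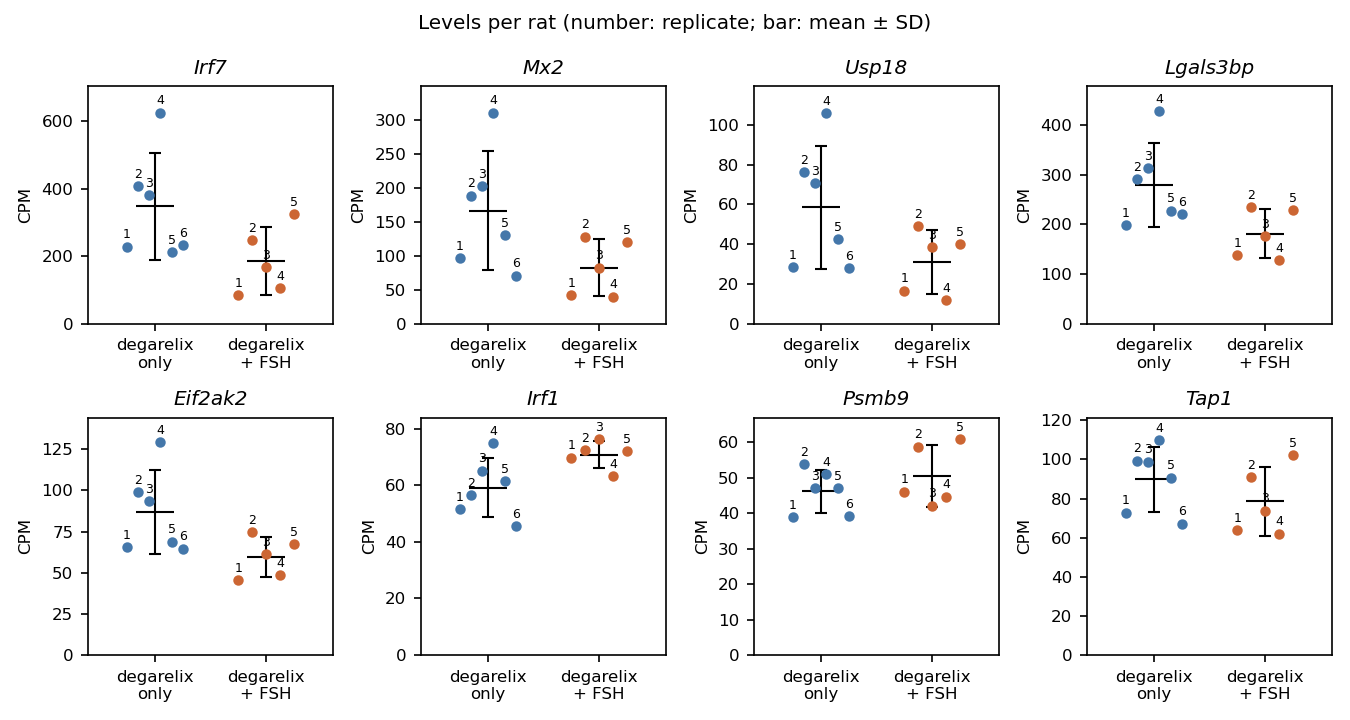
CPM of 8 interferon-stimulated genes in each rat (points, with the replicate number), by group, with mean ± SD bars. Degarelix only replicate 4 is the highest point of its group in all panels but that of Psmb9, and the groups overlap in each panel.

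The listed sensors of viral nucleic acid mostly leaned lower. Ddx58, which encodes the RNA sensor RIG-I, ranged from 11.1 to 23.9 CPM (median 12.4) on degarelix only, and 6.61, 13.3, 7.65, 9.77 and 12.0 CPM in FSH replicates 1 to 5. FSH replicates 1, 3 and 4 lay below the lowest degarelix only library (log2 change -0.56 ± 0.24 SE, adjusted p = 0.194 in edgeR). Without degarelix only replicate 4 the log2 change of Ddx58 was -0.37, and those of Zbp1, Ifih1 and Dhx58 were -0.47, -0.22 and -0.34. Zbp1, a sensor of Z-form nucleic acid that triggers cell death, was low and variable, with 1.29 to 7.64 CPM (median 3.58) on degarelix only, and 0.901, 3.45, 2.08, 1.24 and 3.49 CPM in FSH replicates 1 to 5 (log2 change -0.79 ± 0.49 SE, adjusted p = 0.357). Its highest and lowest degarelix only libraries differed 5.90-fold. The long double-stranded RNA sensor Ifih1 (MDA5) had a log2 change of -0.37 ± 0.19, and Dhx58 (LGP2), which tunes both RNA sensors, had a log2 change of -0.53 ± 0.28. Trim25, the ubiquitin ligase that assists RIG-I, had a log2 change of 0.06 ± 0.22, a value that changed sign when FSH replicate 2 was left out (-0.12). Of the other sensing genes, 10 were tested, 6 lay below 0 and 4 above, and none passed over all genes. The nearest were the adaptors Traf3 (log2 change -0.40 ± 0.10 SE, adjusted p = 0.0632) and Mavs (log2 change -0.22 ± 0.06 SE, adjusted p = 0.0692, edgeR), whose unadjusted p was under 0.05. The unadjusted p of Tlr3 was also under 0.05, but Tlr3 was higher with FSH (log2 change 0.27 ± 0.12 SE, adjusted p = 0.195, edgeR).

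All 12 antiviral effectors had log2 changes below 0, with a median of -0.55, and none passed. Eif2ak2 encodes PKR, the kinase that halts translation on double-stranded RNA. It ranged from 64.6 to 129 CPM (median 81.2) on degarelix only, and 45.5, 74.8, 61.4, 48.6 and 67.3 CPM in FSH replicates 1 to 5, and FSH replicates 1, 3 and 4 lay below all degarelix only libraries (log2 change -0.54 ± 0.20 SE, adjusted p = 0.145 in edgeR). Mx2, a dynamin-like GTPase, had 70.5 to 310.0 CPM (median 159) on degarelix only, and 41.8, 128, 82.4, 39.5 and 120.1 CPM in FSH replicates 1 to 5 (log2 change -1.01 ± 0.42 SE, adjusted p = 0.188). Mx1, its paralog, had 33.3 to 152 CPM (median 98.7) on degarelix only, and 16.5, 79.0, 55.3, 13.4 and 65.3 CPM in FSH replicates 1 to 5 (log2 change -0.99 ± 0.50 SE, adjusted p = 0.267). In both Mx genes FSH replicates 1 and 4 lay below the whole degarelix only range, and the other FSH libraries lay inside it. Cmpk2, a mitochondrial nucleotide kinase, had 26.0 to 58.2 CPM (median 45.6) on degarelix only, and 21.3, 38.2, 31.7, 17.4 and 35.2 CPM in FSH replicates 1 to 5 (log2 change -0.55 ± 0.26 SE, adjusted p = 0.235), and Rsad2 (viperin), the neighbouring gene, had a log2 change of -0.34 ± 0.40, which shrank to -0.05 without degarelix only replicate 4.

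The remaining effectors showed smaller or less certain differences. The oligoadenylate synthetase Oas1a and its relative Oasl had log2 changes of -0.63 ± 0.33 and -0.70 ± 0.39. Ifit2 and Ifit3, which bind foreign RNA, had -0.28 ± 0.23 and -0.54 ± 0.41. The guanylate-binding protein Gbp2 had -0.15 ± 0.16, and Bst2 (tetherin), which holds budding virus at the membrane, had -0.04 ± 0.23, a value that turned to 0.13 without degarelix only replicate 4. Leaving out that library also brought Oasl to -0.43, Ifit2 to -0.14, Ifit3 to -0.30 and Gbp2 to -0.04. Several of these genes (Oas1a, Mx1, Mx2, Gbp2 and the Ifit genes) have near relatives in the genome, so reads may have been split or lost between copies and their values are uncertain.

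ISG15 is a ubiquitin-like protein that is attached to other proteins, and its system was lower at all 3 listed genes without passing. Usp18, which removes ISG15 and also blocks the interferon receptor, ranged from 27.8 to 106 CPM (median 56.6) on degarelix only, and 16.5, 48.9, 38.2, 11.7 and 39.8 CPM in FSH replicates 1 to 5 (log2 change -0.92 ± 0.44 SE, adjusted p = 0.246 in edgeR). FSH replicates 1 and 4 lay below all degarelix only libraries and the others inside their range. Isg15 itself had 46.8 ± 19.7 against 29.6 ± 14.1 CPM (SD, n = 6 and n = 5; log2 change -0.66 ± 0.37). Herc6, the rodent ligase for ISG15, had a log2 change of -0.29 ± 0.38, and 0.00112 without degarelix only replicate 4. The poly(ADP-ribose) polymerase family members Parp9 and Parp14 and the ligase Dtx3l, which acts with Parp9, had log2 changes of -0.20, -0.20 and -0.33, with SE between 0.19 and 0.25. Without degarelix only replicate 4 they were -0.03, -0.07 and -0.14.

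The class I antigen processing genes, which also answer to interferon gamma, stayed nearest to 0. The immunoproteasome subunits Psmb8 and Psmb9 had log2 changes of 0.04 ± 0.14 and 0.13 ± 0.12, and the peptide transporter subunit Tap1 had -0.19 ± 0.16. Psmb9 held 46.2 ± 6.11 against 50.5 ± 8.68 CPM (SD, n = 6 and n = 5). The SE of each was about as large as the difference or larger, so its sign is not settled. Tap1 was -0.13 without degarelix only replicate 4. None of 16 further class I genes passed over all genes, 9 lay below 0 and 7 above, and B2m, the light chain of MHC class I, had a log2 change of -0.16 ± 0.16.

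Lgals3bp, a secreted glycoprotein that binds galectin-3, had the smallest p of the list. It ranged from 198 to 429 CPM (median 259) on degarelix only, and 138, 235, 176, 128 and 229 CPM in FSH replicates 1 to 5. FSH replicates 1, 3 and 4 lay below all degarelix only libraries, and replicates 2 and 5 lay within their lower part (log2 change -0.63 ± 0.22 SE, adjusted p = 0.138 in edgeR). DESeq2 gave the same gene a log2 change of -0.63 and an adjusted p of 0.0473, and the edgeR adjusted p lay between 0.132 and 0.263 over its settings. The induced genes Ifi44, Xaf1 (a partner of the apoptosis inhibitor XIAP) and Rtp4 had log2 changes of -0.38, -0.51 and -0.51, and -0.25, -0.29 and -0.32 without degarelix only replicate 4.

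Within each group the rats differed from one another far more than for most genes, and nearly the whole list moved with the rat. Degarelix only replicate 4 was the highest of its group at 33 of 34 genes (Psmb9 was the exception, highest in replicate 2). Replicates 1 and 6 were its 2 lowest libraries at 29 genes. With FSH, replicates 2 and 5 were the 2 highest at 28 genes and replicates 1 and 4 the 2 lowest at 28. The mean deviation from the group mean over 33 genes (without Ifit1) was -0.57, 0.18, 0.23, 0.71, -0.08 and -0.48 log2 units in degarelix only replicates 1 to 6. It was -0.43, 0.46, 0.09, -0.54 and 0.43 in FSH replicates 1 to 5. The distance between the highest and the lowest rat of a group on this measure was wider than the median difference between the groups. A range of single rats and a difference of group averages are unlike measures, so this describes the spread and does not weigh the group difference.

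**Figure D3:**
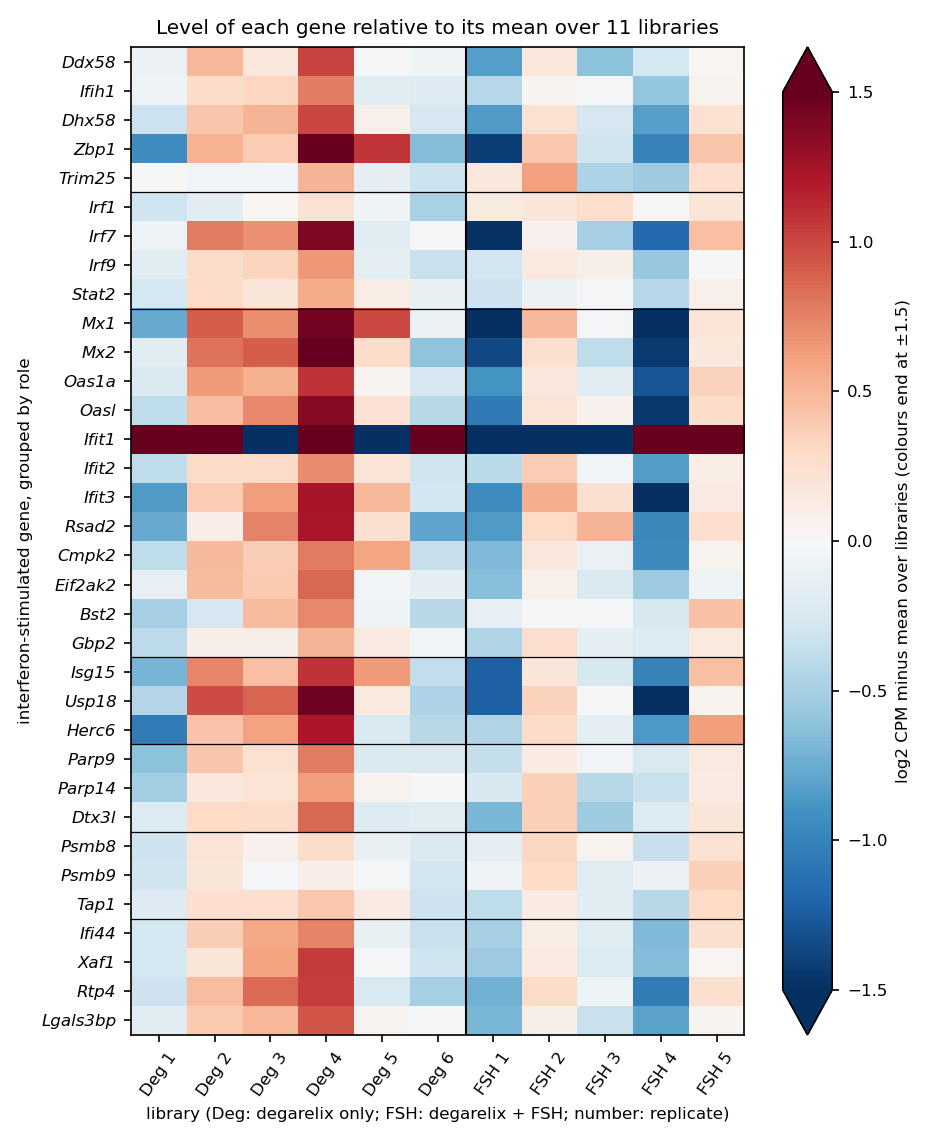
Log2 CPM of the 34 genes (rows, grouped by role) in each of 11 libraries (columns, degarelix only left of the line), relative to each gene's mean over libraries. Columns tend to be red or blue from top to bottom, degarelix only replicate 4 being the reddest and FSH replicates 1 and 4 the bluest, and the row of Ifit1 breaks the pattern.

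Once group means were removed, a single principal component carried 65.8% of the variance of the 34 genes, and 87.7% without Ifit1. The same measure was 21.3% over all 12846 genes tested. Each gene was also set against the mean of the other genes, as a description over 11 libraries that share their depth and scaling. Pearson's r was above 0.8 for 30 of 34 genes. The tightest was Dhx58 at 0.994, and the loosest after Ifit1 (-0.00643) were Trim25 (0.627), Irf1 (0.791) and Ddx58 (0.794). The signs of the 34 group differences are therefore not separate observations.

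The genes differed in how far they followed. Per log2 unit of the mean of the others, Mx1 changed by 1.97 log2 units, Usp18 by 1.76, Zbp1 by 1.75 and Mx2 by 1.67. The least responsive after Ifit1 were Irf1 at 0.327, Psmb9 at 0.359 and Psmb8 at 0.497. The genes that followed most between rats within groups also had the most negative group differences: over the 33 genes without Ifit1, this slope and the log2 change with FSH had a Pearson's r of -0.821 (Spearman's rho -0.824). That is a relation across genes of the same libraries, which are not independent replicates, and it carries no test. Since a single component held most of the variance within groups, any uneven split of rats between the groups would give such a relation too. It therefore says nothing about whether FSH acted.

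The spread itself set these genes apart in size. The SD of log2 CPM between rats within groups had a median of 0.436 over the 34 genes and 0.188 over all genes tested. All 34 lay above the median of all genes, and 14 lay above its 90th percentile of 0.510. After Ifit1, the widest were Mx1 (0.995), Zbp1 (0.901) and Usp18 (0.845), and the narrowest were Irf1 (0.200) and Psmb9 (0.217). In the degarelix only group the highest rat exceeded the lowest by a median of 2.29-fold over the genes, and in the FSH group by 2.11-fold.

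**Figure D4:**
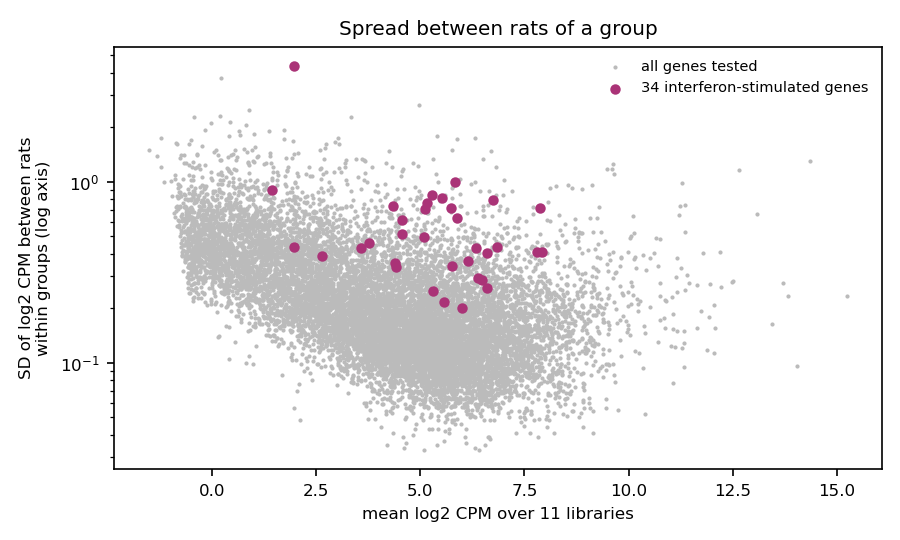
SD of log2 CPM between rats within groups (vertical, log axis) against mean log2 CPM (horizontal) for all 12846 genes tested (grey) and the 34 interferon-stimulated genes (purple). The purple points lie in the upper part of the cloud at their level, with Ifit1 at the top.

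Ifit1, the effector that recognises RNA lacking a host cap, was counted in some rats and nearly absent in others, in both groups. It had 1405, 1677, 2155 and 659 counts in degarelix only replicates 1, 2, 4 and 6, but 3 and 1 in replicates 3 and 5. With FSH it had 397 and 1172 counts in replicates 4 and 5, but 0, 2 and 0 in replicates 1 to 3. The 5 low libraries thus lay at or under the floor of 3 counts, and the others lay between 23.4 and 99.1 CPM. Its neighbours in the family did not follow this split. In degarelix only replicate 3, where Ifit1 had 3 counts, Ifit3 was at 70.4 CPM, the second highest of the group, and in FSH replicate 2 Ifit2 was at 149 CPM, the highest of its group. The related gene Ifit1bl, which was counted in all libraries, had 3.33 and 3.47 CPM in degarelix only replicates 3 and 5 and 3.48, 3.33 and 4.01 CPM in FSH replicates 1 to 3. These are the 5 highest values of Ifit1bl among the 11 libraries, the others lying between 0.701 and 3.05 CPM. The fitted log2 change of Ifit1 (-1.51 ± 1.43, adjusted p = 0.560, edgeR) mixes how many rats of each group had it with its level in them. Where it was counted, it had 75.8, 70.9, 99.1 and 32.1 CPM in degarelix only replicates 1, 2, 4 and 6. In FSH replicates 4 and 5 it had 23.4 and 56.8 CPM. The 2 parts were not tested apart.

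**Figure D5:**
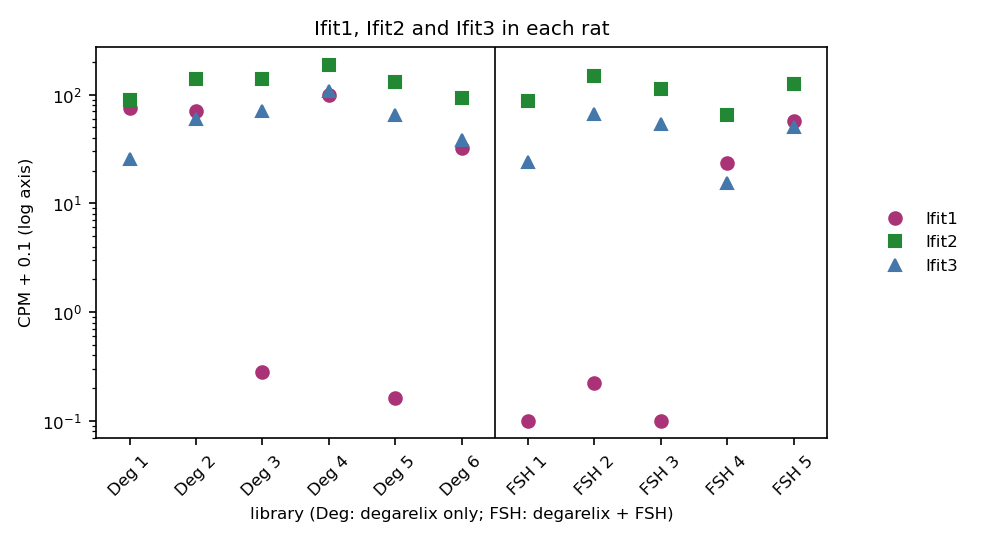
CPM plus 0.1 (log axis) of Ifit1, Ifit2 and Ifit3 in each of 11 libraries. Ifit1 drops to the bottom of the plot in degarelix only replicates 3 and 5 and FSH replicates 1 to 3, where Ifit2 and Ifit3 stay in the range of the other rats.

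Markers of immune cells differed between rats as well, and their part in the pattern was not tested. The 10 macrophage markers (10 of 10 tested, none at 0) summed to 465 to 948 CPM on degarelix only and 424 to 901 CPM with FSH. They were highest in degarelix only replicate 4 and in FSH replicate 2, the libraries in which the interferon-stimulated genes were highest in each group. The orders differed elsewhere: degarelix only replicate 2 had 474 CPM, the second lowest of its group, and interferon-stimulated genes above the group mean. T and NK cell markers (10 of 12 tested, Gzmb and Klrb1 at 0) summed to 47.6 to 79.9 CPM and 42.8 to 80.5 CPM, again highest in these libraries. In degarelix only replicate 4, Cd4 alone held 45.7 of the 79.9 CPM. Cd3d (0.368 CPM) and Cd3g (0.690 CPM) were at their lowest of the group in that library, so these markers did not peak together there. Of the markers of plasmacytoid dendritic cells, the professional makers of type I interferon, 4 were tested, Ly6d was at 0 and Siglech had 7 counts in all. Without Bst2, which is itself on the list, they summed to 61.3 to 79.0 CPM and 61.2 to 89.4 CPM. Most of this sum was Irf8, Il3ra and Tcf4 (means of 26.6, 24.0 and 18.5 CPM on degarelix only). Tlr9 and Spib had 0.256 and 0.343 CPM there. Irf8 itself followed the mean of the listed genes between rats (Pearson's r 0.822). The sum was highest in degarelix only replicate 4 and FSH replicate 5, and lowest in degarelix only replicate 6 and FSH replicate 4. The heat shock gene Hspa1b also peaked in that degarelix only library (replicate 4) at 161 CPM, and its group's remaining libraries ranged from 4.46 to 49.0 CPM. With FSH it ranged from 1.99 to 8.71 CPM.

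Vessel markers leaned higher with FSH, and 1 of them passed the test. All 8 endothelial markers tested (of 9 symbols, none of those tested at 0) had log2 changes above 0, with a median of 0.32, and 5 had an unadjusted p under 0.05. Over all genes tested, 48.4% were below 0, 22.6% had an unadjusted p under 0.05 (11.8% higher) and 2.27% passed in edgeR. The marker that passed over all genes was Tek, a receptor of angiopoietins (log2 change 0.44 ± 0.10 SE, adjusted p = 0.0431 in edgeR). Its call ended without any one of degarelix only replicates 1, 2, 5 and 6 or FSH replicates 1, 2, 3 and 5 (adjusted p 0.0661 to 0.106) and without the low-count filter (0.0512). The endothelial markers summed to 1425 to 1932 CPM on degarelix only and 1618 to 2638 CPM with FSH. They were highest in FSH replicate 1, one of the libraries lowest in interferon-stimulated genes, and stood at 1579 CPM in degarelix only replicate 4. Other libraries went the other way. The lowest sums were in degarelix only replicate 6 (1425 CPM) and FSH replicate 4 (1618 CPM), both low in interferon-stimulated genes. FSH replicate 5, where these genes were high, had 2173 CPM. All 4 red blood cell markers tested (of 7 symbols, none of those tested at 0) also had log2 changes above 0 (median 0.66, 0 passing over all genes in edgeR and 1 at an unadjusted p under 0.05). They summed to 209 to 1229.7 CPM and 557 to 2212 CPM. The sum was highest in degarelix only replicate 1 and FSH replicate 4, where the mean of the interferon-stimulated genes was lowest in each group. It was 343 CPM in degarelix only replicate 6, which was also low in these genes. Among 7 dendritic cell markers tested, Zbtb46, a transcription factor of conventional dendritic cells that endothelial cells also express, passed (log2 change 0.69 ± 0.13 SE, adjusted p = 0.0318 in edgeR). That call ended without any one of degarelix only replicates 1, 5 and 6 or FSH replicates 1, 2 and 5 (adjusted p 0.0540 to 0.0791). The part of these marker groups in the lower levels of the interferon-stimulated genes was not tested.

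Other interferon-induced genes were also mostly lower, and none was called. Of 42 tested from the further list, 37 lay below 0 and 5 above (median -0.19), and 0 passed over all genes in edgeR. At an unadjusted p under 0.05, 9 passed, all of them lower with FSH. That share was no higher than the 22.6% of all genes in both directions together, but above the 10.8% that were lower. The difference in shares was not tested. Those of smallest p were the GTPase Gbp1 (log2 change -1.51 ± 0.42 SE, adjusted p = 0.0771), Parp10 (log2 change -0.25 ± 0.07 SE, adjusted p = 0.0799), the GTPase Igtp (log2 change -0.52 ± 0.15 SE, adjusted p = 0.0808) and Parp12 (log2 change -0.55 ± 0.16 SE, adjusted p = 0.0921). Parp10 was the one among these 4 whose groups did not overlap. The brakes of the pathway stood near 0, with 0 of 11 tested passing and 0 at an unadjusted p under 0.05, and Socs1, the main feedback inhibitor of the Jak kinases, at 0.28 ± 0.30.

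Outside these lists, 10 genes with a mean of at least 1 CPM were picked for following the group-centred mean of the 33 genes most closely over 11 libraries. They were the RNA helicase Mov10 (Pearson's r 0.980, Spearman's rho 0.991), MGC105567, Znfx1, Slfn3, RGD1563091, Hsh2d, Mitd1, Lgals9, Rnf213 and Oas1g (r 0.928). These values were selected as the highest and so carry no p. Mov10 held 23.0 ± 4.98 CPM on degarelix only and 22.6 ± 3.95 CPM with FSH (SD, n = 6 and n = 5; log2 change -0.02 ± 0.16). It thus followed the rats within groups and had nearly equal group means, as did Mitd1 (log2 change 0.04 ± 0.15) and Lgals9 (0.12 ± 0.23), while Slfn3 and MGC105567 had log2 changes of -0.65 ± 0.47 and -0.65 ± 0.29. None of the 10 passed over all genes in edgeR (lowest adjusted p = 0.204).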

How the data were processed

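Per the labels' protocols, 1 stranded paired-end mRNA library was made per rat. The authors deposited raw counts by Ensembl gene in a single table. STAR, edgeR, DESeq2 and the build rn6 are named in the submitters' processing notes, while counting program and strand setting were not given in the sources used here, so overlapping or antisense genes can share counts. Pcmt1 was dropped for a non-numeric entry. Genes passing filterByExpr (12846) entered edgeR 4.0.16 (R 4.3.3) with TMM factors, a design of group alone and the robust quasi-likelihood F test, with Benjamini-Hochberg adjustment over all of them. DESeq2 1.42.0, limma 3.58.1 voom with quality weights, other scalings and filters, the replicate block and leaving out each library were alternatives. Log2 CPM used a prior count of 2. The edgeR step was tested on simulated data with 200 changed genes, drawn from all genes tested. It recovered 3 of 50 genes changed 1.3-fold, 23 of 50 at 1.5-fold, 42 of 50 at 2-fold and 45 of 50 at 3-fold. Of 121 calls, 8 were false. Small changes were thus mostly missed, so a gene that did not pass may still differ. All library pairs differed beyond sampling noise (lowest chi-square per degree of freedom 21.0).

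The listed genes, the pathway lists and the marker lists were chosen with earlier results of these data known. Genes described in full are the 8 of smallest p and the 4 of widest spread within groups. Pathway genes named are those past the threshold and up to 4 of smallest p per list, and others, such as Ifit1bl, B2m, Tek and Zbtb46, were chosen after their values were seen. Promoter windows come from RefSeq (GRCr8), and no other coordinates are printed. Of the 2 pathway genes past the threshold, 1 is not reported here.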

Additional observations from a re-analysis of the deposited data

Results flagged for a closer look

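Bst2 stood apart in FSH replicate 5, at 331 CPM, and the remaining 4 FSH rats had 206 to 241 CPM. Trim25 stood apart in degarelix only replicate 4, at 8.74 CPM, where the other libraries of its group lay between 4.87 and 6.15 CPM. Each gap to the nearest rat exceeded Dixon's 95% limit for its group. Of 68 group values examined (34 genes in each group), 2 did so, where chance gives about 1 in 20.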

How the results depend on the processing

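With 0 genes called, the count over the 34 interferon-stimulated genes was 0 under all alternatives but DESeq2, which called 1, and it was 0 without any single library. Their median log2 change lay between -0.55 and -0.27 with 1 library left out and was -0.38 without Ifit1 (chosen after seeing the data). The count over all genes, 292, was 1135 with DESeq2, 631 with limma-voom, 962 at an adjusted p of 0.10 and 30 to 551 with 1 library left out (without degarelix only replicates 1 to 6 in turn 51, 125, 152, 532, 78, 50, and without FSH replicates 1 to 5 47, 30, 92, 551, 49). The pathway genes called, 2, were 1 with either other scaling or no filter, 10 with DESeq2, 4 with limma-voom, 8 at an adjusted p of 0.10 and 0 to 3 with 1 library left out. The cause of these shifts was not tested. The first component held 60.4 to 72.1% with 1 library left out, 87.7% without Ifit1 and 81.9% with genes scaled to unit variance (the last 2 chosen after seeing the data). The longer motif, the same core followed by CT, stood in 7 of 25 windows.

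Same-numbered rats of the 2 groups are different animals, and the correlations of their deviations lay between -0.110 and 0.130, with 1 of 5 best matched by its own number, so the numbers did not pair them. With the replicate block, 14 genes, 0 of the listed genes and 0 pathway genes were called. Signs changed at 4 listed genes. Psmb8 was -0.00507 and Trim25 -0.0348 with the block, Bst2 was 0.0574 with limma-voom, and with 1 library left out Psmb8 lay between -0.0399 and 0.117, Trim25 between -0.115 and 0.186, Bst2 between -0.166 and 0.133 and Herc6 between -0.513 and 0.00112.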

Other observations

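The chemokines that interferon gamma induces and that draw T cells through the receptor Cxcr3 did not share one pattern. Cxcl9 lay within 79.8 to 114 CPM on degarelix only and 86.7 to 147 CPM with FSH. Its SD of log2 CPM within groups was 0.271, below that of Cxcl10 but above the median of all genes tested (0.188). Cxcl10 spanned 4.10 to 26.9 CPM on degarelix only and 2.47 to 28.5 CPM with FSH, with a within-group SD of 1.27, and Cxcl11 had 2.52 ± 2.13 CPM (SD, n = 6) and 0.682 ± 0.571 CPM (SD, n = 5). Cxcl10 peaked in degarelix only replicate 5 and FSH replicate 3. Cxcl11 shared the peak in degarelix only replicate 5 (5.82 CPM), but with FSH it peaked in replicate 2. The 2 highest FSH libraries for Cxcl9 were replicates 5 and 2. Pearson's r with the group-centred mean of the listed genes (without Ifit1) was 0.810 for Cxcl9, 0.734 for Cxcl10 and 0.279 for Cxcl11. None of the 3 passed over all genes in edgeR (lowest adjusted p = 0.178, for Cxcl11).

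Among MHC class I heavy chains, RT1-A2 spanned 297 to 957 CPM on degarelix only and 392 to 989 CPM with FSH and RT1-CE10 spanned 97.1 to 319 CPM on degarelix only and 134 to 294 CPM with FSH, with within-group SDs of 0.628 and 0.609, while RT1-A1 had an SD of 0.302. These genes are close copies of one another, so their separate counts are uncertain.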
